A study of Mus musculus with 12 samples.

Results

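The MS4A (membrane-spanning 4-domains, subfamily A) genes *Ms4a4a*, *Ms4a4c*, *Ms4a6b*, *Ms4a6c*, *Ms4a6d* and *Ms4a7* were described in mouse bone marrow-derived macrophages (BMDM). The genes were taken by their symbols from the deposited expression table, which gave 6 of 43280 genes. The rule named no measured value, but the symbols were listed with earlier results of these data known. The list was thus not chosen blind to expression, and it leaves out other genes of the family, described below. RNA-seq libraries had been made from BMDM of wild type (wt) and *Treml4*-/- mice, both on a C57BL6 background, after culture with M-CSF. Cells were unstimulated (M0, vehicle) or had received lipopolysaccharide (LPS), the bacterial cell wall component used to polarize macrophages towards the inflammatory M1 state. LPS was given at 100 ng/mL, and cells were taken after 8 h (M1-8 h) or 12 h (M1-12 h). Each of the 6 conditions had 2 libraries labelled as biological replicates, so that 12 libraries were compared. The labels give neither the age nor the sex of the mice, and they name no further allele or agent.

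MS4A proteins cross the plasma membrane several times with both ends in the cytoplasm, and many of them sit beside immune receptors and change how these signal. The best known are CD20 of B cells, encoded by *Ms4a1*, and the beta chain of the high-affinity IgE receptor of mast cells, encoded by *Ms4a2*. The *Ms4a4* and *Ms4a6* branches and *Ms4a7* are the members found in monocytes, macrophages and microglia, where MS4A4A associates with the beta-glucan receptor Dectin-1, and the human cluster is known for variants linked to Alzheimer's disease and to soluble TREM2.

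The family forms 1 cluster on chromosome 19. In the GENCODE M21 annotation of GRCm38, 19 *Ms4a* genes lie between 10962293 and 11640851, a span of 678.6 kb, and the 6 genes described here lie within 283.8 kb of it. *Ms4a7* (11321039 to 11336146) lies on the minus strand. It is followed, after a gap of 39.4 kb, by *Ms4a4a* (11375523 to 11392790), *Ms4a4c* (11404770 to 11427246), *Ms4a6c* (11469366 to 11482192) and *Ms4a6b* (11516512 to 11531256) on the plus strand. *Ms4a6d* (11586604 to 11604849) is again on the minus strand. The *Ms4a6* genes are close copies of each other in their coding sequence. *Ms4a6b* and *Ms4a6c* were identical at 85.4% of 642 aligned coding bases, *Ms4a6b* and *Ms4a6d* at 81.2% and *Ms4a6c* and *Ms4a6d* at 79.0%, while *Ms4a7* was identical to these 3 at 62.5% to 64.0%. *Ms4a4c* was identical at 91.7% to its neighbour *Ms4a4b*, and at 68.3% to *Ms4a4a*.

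The 250 bases before a RefSeq start of transcription are shown for the gene that rose most (*Ms4a4c*), for the pair whose promoters resemble each other (*Ms4a6b* and *Ms4a6c*), for *Ms4a4a* and for the gene that moved apart from the others (*Ms4a7*). They are RefSeq sequences on GRCm38.p6, written 5′ to 3′ along the gene. A promoter was at hand for 5 of the 6 genes, *Ms4a6d* being the exception. For *Ms4a4c* and *Ms4a6b* the RefSeq start lies downstream of the GENCODE start, so these windows lie inside the annotated gene. The bases before their GENCODE starts are not shown. Capitals mark matches on either strand to the interferon-stimulated response element (GAAANNGAA, with N any base), the PU.1 site (AGGAAGT) and the kappa-B site (GGGANTTCC, or its longer degenerate form).
Ms4a4a: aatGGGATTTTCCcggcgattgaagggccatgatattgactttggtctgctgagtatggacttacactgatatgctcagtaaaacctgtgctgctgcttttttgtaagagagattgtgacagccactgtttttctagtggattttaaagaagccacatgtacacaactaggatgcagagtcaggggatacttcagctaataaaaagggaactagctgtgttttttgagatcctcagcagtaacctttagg
Ms4a4c: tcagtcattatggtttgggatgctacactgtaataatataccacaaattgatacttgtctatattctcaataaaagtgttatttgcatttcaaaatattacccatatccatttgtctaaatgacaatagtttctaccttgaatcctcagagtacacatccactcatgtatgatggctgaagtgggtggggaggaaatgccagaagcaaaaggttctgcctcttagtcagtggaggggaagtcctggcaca
Ms4a6b: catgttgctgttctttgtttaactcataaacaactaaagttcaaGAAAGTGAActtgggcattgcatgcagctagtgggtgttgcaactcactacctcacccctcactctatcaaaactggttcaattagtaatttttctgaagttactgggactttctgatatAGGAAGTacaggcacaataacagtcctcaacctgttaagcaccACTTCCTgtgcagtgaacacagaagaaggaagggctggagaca
Ms4a6c: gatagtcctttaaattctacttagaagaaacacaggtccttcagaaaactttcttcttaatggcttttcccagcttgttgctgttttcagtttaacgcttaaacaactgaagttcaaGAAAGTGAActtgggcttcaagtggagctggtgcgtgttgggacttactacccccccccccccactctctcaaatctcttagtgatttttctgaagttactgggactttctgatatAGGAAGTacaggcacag
Ms4a7: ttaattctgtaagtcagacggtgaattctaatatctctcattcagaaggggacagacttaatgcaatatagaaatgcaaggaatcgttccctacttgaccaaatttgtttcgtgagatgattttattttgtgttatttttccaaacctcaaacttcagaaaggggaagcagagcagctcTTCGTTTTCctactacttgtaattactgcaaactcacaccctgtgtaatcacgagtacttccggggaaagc
The windows lie at chr19:11375238-11375487, chr19:11407411-11407660, chr19:11518309-11518558 and chr19:11469118-11469367 on the plus strand for the first 4 genes, and at chr19:11336147-11336396 on the minus strand for *Ms4a7*. *Ms4a7* has a second start in RefSeq, which is not shown.

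The *Ms4a6b* and *Ms4a6c* promoters were identical at 85.1% of 175 aligned bases, whereas the other pairs of promoters shown, aligned in the same way, were identical at 53.1% to 61.3%. They share a run of 48 identical bases that holds a PU.1 site, and *Ms4a6b* has a second PU.1 match on the minus strand. Both hold the same 9 letters GAAAGTGAA of the interferon-stimulated response element, 206 to 198 bases before the start in *Ms4a6b* and 133 to 125 bases before it in *Ms4a6c*. *Ms4a7* has a match to this element on the minus strand, 71 to 63 bases before its start. The element occurs in 7.13% of the 32851 mouse promoters of this length, the PU.1 site in 7.69%, the short kappa-B form in 1.43% and the longer form in 7.25%. *Ms4a4a* holds the longer kappa-B form (GGGATTTTCC) 247 to 238 bases before its start. The *Ms4a4c* window holds none of these letters. The gamma-activated site (TTCNNNGAA, in 7.02% of promoters), the AP-1 site (TGANTCA, in 6.75%) and the C/EBP site (TTGCNNAA, in 9.56%) were searched as well and had no match in the 5 windows shown. The window before the second start of *Ms4a7* held an AP-1 match (TGATTCA, 81 to 75 bases before that start). It also held a match to the interferon-stimulated response element (GAAAAGGAA, 148 to 140 bases before that start). These matches describe letters, the search letters were set after the promoters had been seen, and no binding was measured.

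Values are CPM, the reads of a gene scaled to a common library total. Between 48008751 and 58500792 reads were counted on genes per library, and 1 read was worth 0.0171 to 0.0208 CPM, so that each of the 6 genes rested on at least 124 reads in every library. *Treml4*, the deleted gene, had 198 to 663 reads in the wt libraries and 0 reads in all 6 *Treml4*-/- libraries. All 7 macrophage markers examined, among them *Csf1r*, *Adgre1* and *Cd68*, were at 1 CPM or more in all 12 libraries. Differences were tested with limma on log2(CPM + 1) over the 12086 genes that reached 1 CPM in 2 or more libraries, a filter that all 6 MS4A genes passed. This scale understates the change of low genes. A gene was called when its Benjamini-Hochberg adjusted p (adjusted p from here on) was under 0.05 and its fold change at least 1.4. Where reads per gene changed in this bulk material, fewer cells of a type and less RNA per cell cannot be told apart.

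LPS raised 5 of the 6 MS4A genes in both genotypes. At 8 h in wt, *Ms4a4a*, *Ms4a4c*, *Ms4a6b*, *Ms4a6c* and *Ms4a6d* were called higher than at M0, when 16.3% of all genes tested were called higher, and *Ms4a7* was called lower, when 60.6% of all genes were called lower. In *Treml4*-/- cells the same 5 genes were called higher (17.7% of all genes) and *Ms4a7* lower (58.1% of all genes). The median log2 fold change of the 6 genes was 2.60 in both genotypes, beside -0.74 in wt and -0.70 in *Treml4*-/- cells over all genes tested. At 12 h the same division was found, with 5 genes called higher (16.2% of all genes in wt and 16.1% in *Treml4*-/- cells) and *Ms4a7* called lower (60.4% and 59.6% of all genes). The LPS and M0 libraries of a genotype did not overlap for any of the 6 genes, as was so for 91.1% to 94.2% of all genes tested.

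**Figure D1:**
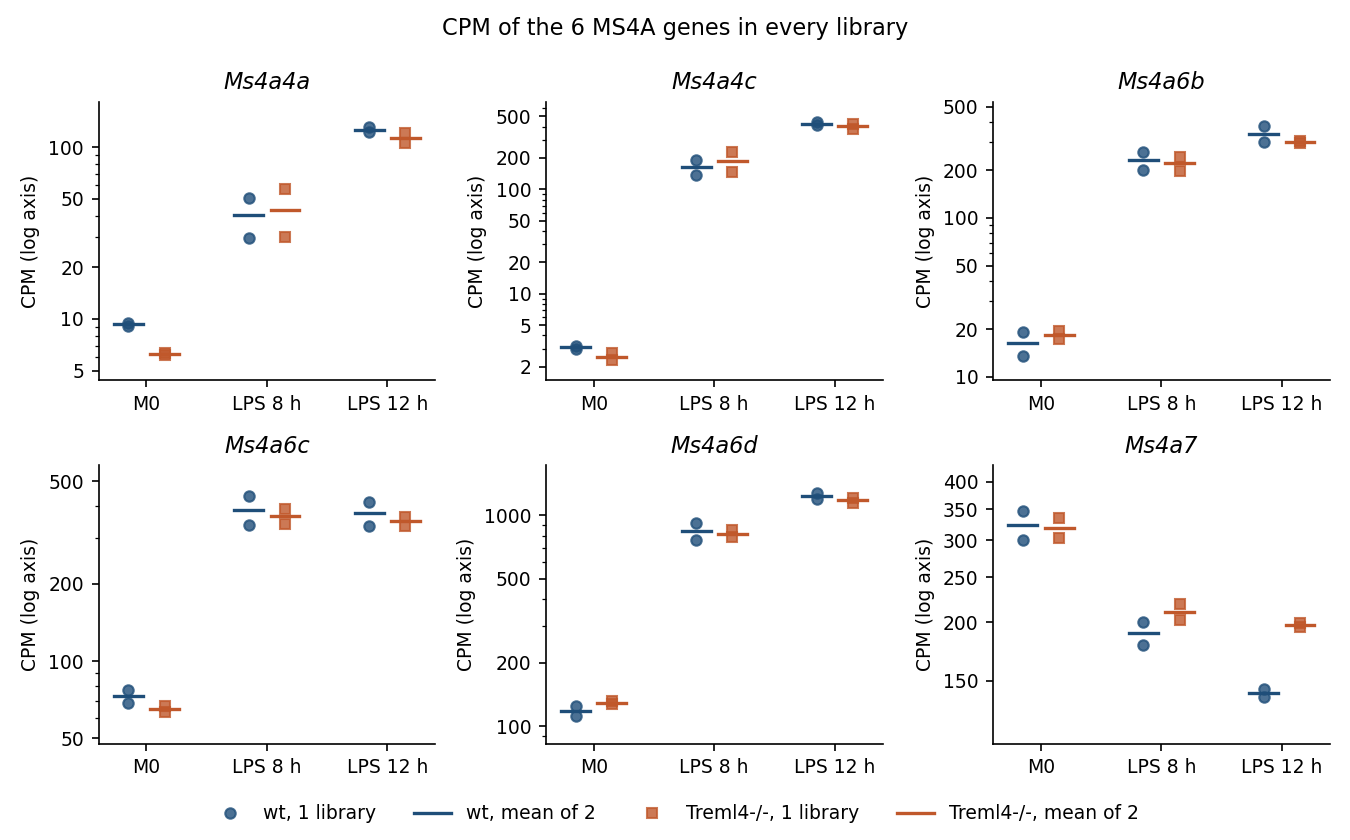
CPM on a log axis for each of the 6 MS4A genes at M0, LPS 8 h and LPS 12 h, with 1 point per library (circles wt, squares *Treml4*-/-) and a bar at the mean of 2 libraries. 5 genes stand higher in every LPS library than in every M0 library, as did 15.8% of all genes tested, and *Ms4a7*, between 300.5 and 345.9 CPM at M0, stands lower after LPS, a fall that depends on how the libraries are scaled.

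*Ms4a4c*, a member of the *Ms4a4* branch, rose most. It had 2.95 and 3.19 CPM at M0, 137.3 and 190.5 at 8 h and 410.9 and 441.1 at 12 h in wt. Without *Treml4* it had 2.71 and 2.32 CPM at M0, 146.5 and 229.3 at 8 h and 426.3 and 379.9 at 12 h. Per length of transcript it was last of the 6 genes at M0 and second at 12 h. Mean CPM of *Ms4a4c* were 138.8 times those at M0 at 12 h in wt and 160.3 times in *Treml4*-/- cells, and the log2 fold changes were 6.71 ± 0.19 (SE, limma, adjusted p = 1.1e-10) and 6.85 ± 0.19 (limma, adjusted p = 1.1e-10). Of the 50-base runs in its transcripts 8.19% occur in another gene, mostly *Ms4a4b*, and of the 100-base runs 1.66%, while reads were 126 bases long and paired. *Ms4a4b* itself stayed at or below 1.98 CPM.

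*Ms4a4a*, which in macrophages encodes the partner of Dectin-1, had 9.14 and 9.50 CPM at M0, 29.4 and 50.7 at 8 h and 131.1 and 122.1 at 12 h in wt. *Ms4a4a* in *Treml4*-/- cells had 6.34 and 6.14 CPM at M0, 29.8 and 56.9 at 8 h and 120.8 and 105.7 at 12 h. Its 2 replicates at 8 h differed more than those of any other condition, replicate 2 being the higher in both genotypes. The log2 fold change of *Ms4a4a* at 8 h was 1.94 ± 0.27 in wt (limma, adjusted p = 3.8e-05) and 2.54 ± 0.27 in *Treml4*-/- cells (limma, adjusted p = 3.8e-06), and at 12 h it was 3.63 ± 0.27 and 3.98 ± 0.27. Replicate 2 was also the higher of the 8 h pair for the other 5 genes in both genotypes.

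*Ms4a6d*, known in macrophages as a partner of the complement receptor Vsig4, was first of the 6 per length of transcript after LPS. It had 124.7 and 112.0 CPM at M0, 763.5 and 919.9 at 8 h and 1194.5 and 1278.3 at 12 h in wt, against 131.5 and 127.6, 787.4 and 854.1, and 1206.7 and 1152.5 CPM in *Treml4*-/- cells. Its libraries at M0, 8 h and 12 h were separate from each other in each genotype, as were those of every other member but *Ms4a6c*. Between 8 h and 12 h, 5 of the 6 genes did not overlap, as was so for 73.7% (wt) and 76.9% (*Treml4*-/-) of all genes tested. The standard errors of *Ms4a6d* were the smallest among the 5 rising genes. The log2 fold change of *Ms4a6d* at 12 h was 3.37 ± 0.10 in wt (limma, adjusted p = 1.4e-10) and 3.18 ± 0.10 in *Treml4*-/- cells (limma, adjusted p = 2.5e-10).

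*Ms4a6b* and *Ms4a6c*, the pair with similar promoters, both rose. *Ms4a6b* had 19.2 and 13.5 CPM at M0, 201.4 and 258.3 at 8 h and 298.3 and 378.4 at 12 h in wt, and 19.6 and 17.3, 197.5 and 243.2, and 305.7 and 295.1 CPM in *Treml4*-/- cells. *Ms4a6c* had 77.1 and 69.0 CPM at M0 in wt and 339.4 and 437.1 at 8 h and 336.3 and 414.0 at 12 h. *Ms4a6c* in *Treml4*-/- cells had 63.1 and 66.7, 342.2 and 389.5, and 364.9 and 336.5 CPM. At 12 h the log2 fold change of *Ms4a6b* was 4.30 ± 0.18 in wt and 3.96 ± 0.18 in *Treml4*-/- cells, and that of *Ms4a6c* was 2.34 ± 0.14 and 2.42 ± 0.14 (adjusted p between 1.9e-09 and 2.2e-08 for these 4 values, limma). Whether the changes of these 2 genes differ was not tested. Of the 50-base runs in the transcripts of *Ms4a6c* 10.5% occur in another gene, 117 of these 211 runs in *Ms4a6b*, and no 100-base run of *Ms4a6b* occurs in another gene, so the counts of the pair carry some uncertainty from reads that fit both.

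*Ms4a7* stood apart from the other 5. It had 300.5 and 345.9 CPM at M0, 178.6 and 200.8 at 8 h and 144.3 and 138.1 at 12 h in wt. The *Treml4*-/- libraries had 303.2 and 334.7 CPM at M0, 202.4 and 219.1 at 8 h and 199.8 and 195.2 at 12 h. The log2 fold change of *Ms4a7* at 8 h was -0.76 ± 0.097 in wt (limma, adjusted p = 1.6e-05) and -0.59 ± 0.097 in *Treml4*-/- cells (limma, adjusted p = 1.3e-04). At 12 h it was -1.19 ± 0.097 in wt (limma, adjusted p = 3.6e-07) and -0.69 ± 0.097 in *Treml4*-/- cells (limma, adjusted p = 3.9e-05).

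The fall of *Ms4a7* was close to that of the median gene, except at 12 h in wt, where it was larger. On the library size scale the median log2 fold change of all 12086 genes was -0.744 at 8 h and -0.768 at 12 h in wt, and -0.696 and -0.739 in *Treml4*-/- cells. The 1000 genes with the most reads held 61.4% to 64.3% of the reads at M0, 70.7% to 72.4% at 8 h and 72.3% to 73.5% at 12 h. Scaling by the median of ratios, which sets the typical gene to no change, gave *Ms4a7* log2 fold changes of 0.078 in wt (limma, adjusted p = 0.563) and 0.16 in *Treml4*-/- cells (limma, adjusted p = 0.242) at 8 h, and of -0.31 (adjusted p = 0.0271, under the minimum fold change) and 0.14 (adjusted p = 0.302) at 12 h. On that scale *Ms4a7* was called in no comparison of LPS with M0. The other 5 genes were called higher on both scales. With median of ratios scaling 30.9% of all genes were called higher and 30.9% lower at 8 h in wt, and 32.9% and 33.1% at 12 h in wt, and the shares in *Treml4*-/- cells were 31% and 32.5% at 8 h and 32.4% and 32.5% at 12 h.

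**Figure D2:**
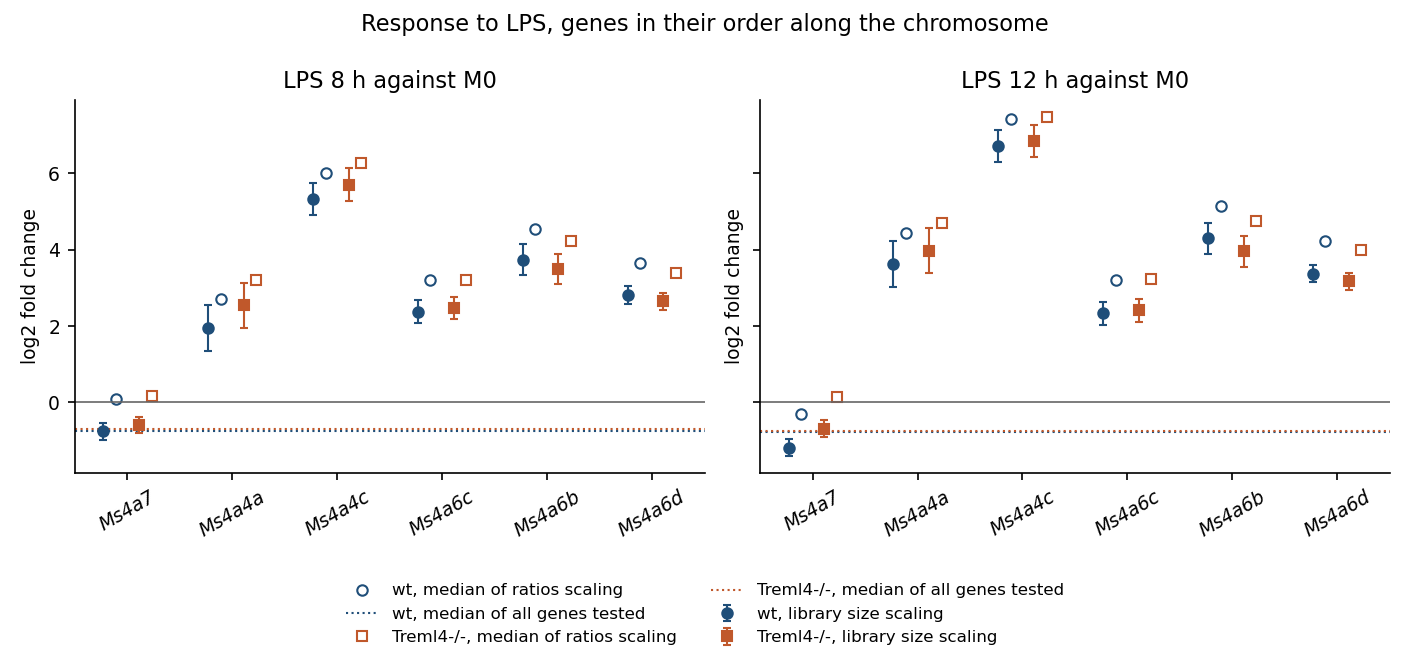
log2 fold change of LPS against M0 at 8 h and 12 h for the 6 MS4A genes in their order along the chromosome. Filled symbols with 95% intervals use library size scaling, open symbols use median of ratios scaling, circles are wt and squares *Treml4*-/- cells, and dotted lines are the median of all genes tested. *Ms4a7* lies near or, at 12 h in wt, below the dotted lines and between -0.31 and 0.16 with the other scaling, and the 5 other genes lie at 1.94 or higher on both.

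Between 8 h and 12 h of LPS, both *Ms4a4* genes and *Ms4a6d* were called higher in each genotype. *Ms4a6b* was called higher in wt, and *Ms4a6c* differed little. In wt, 4 of the 6 genes were called higher at 12 h than at 8 h (14% of all genes tested) and none lower (17.6% of all genes). The log2 fold changes in wt were 1.69 ± 0.27 for *Ms4a4a*, 1.39 ± 0.19 for *Ms4a4c*, 0.56 ± 0.10 for *Ms4a6d* and 0.56 ± 0.18 for *Ms4a6b* (adjusted p = 4.9e-04, 1.9e-04, 0.00105 and 0.0261, limma). *Ms4a6c* had -0.046 with a 95% interval from -0.34 to 0.25. *Ms4a7* had -0.42 (limma, adjusted p = 0.00451), which is a 1.34-fold difference and below the minimum. In *Treml4*-/- cells, *Ms4a4a* (1.43), *Ms4a4c* (1.13) and *Ms4a6d* (0.52) were called higher (12.9% of all genes) and none lower (19.4% of all genes). There *Ms4a6b* had 0.45 (limma, adjusted p = 0.0592), *Ms4a6c* -0.059 and *Ms4a7* -0.092. Both 12 h libraries of *Ms4a6b* (305.7 and 295.1 CPM) lay above both 8 h libraries (197.5 and 243.2 CPM) in *Treml4*-/- cells. Whether the genotypes differ in the step from 8 h to 12 h was not tested. Without replicate 1 of wt 8 h, *Ms4a6b* (0.38) and *Ms4a6d* (0.43) were no longer called in wt and *Ms4a7* (-0.50) was called lower. Without replicate 2 of wt 12 h the *Ms4a6b* value was 0.39 and not called.

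None of the 6 genes was called between wt and *Treml4*-/- cells at any time. At M0, 0 of 6 genes were called with limma, 0 had an unadjusted p under 0.05, beside 0.0993% called and 3.35% under 0.05 without adjustment among all genes tested. At 8 h, 0 of 6 were called and 0 had an unadjusted p under 0.05, beside 0.091% called and 21% under 0.05 without adjustment among all genes. At 12 h, 0 of 6 were called (0.132% of all genes), and *Ms4a7* alone had an unadjusted p under 0.05, as had 7.55% of all genes. Over the 3 time points together 0 of 6 were called (0.414% of all genes), *Ms4a7* alone being under 0.05 without adjustment, as were 20.1% of all genes. With voom on recovered reads none of the 6 was called in these comparisons either. The number of all genes called rested on single libraries. It was 12 at M0, and 220 (16 higher and 204 lower) without replicate 1 of wt M0. It was 11 at 8 h, and 599 (24 higher and 575 lower) without replicate 1 of *Treml4*-/- 8 h. It was 16 at 12 h, and 79 (22 higher and 57 lower) without replicate 1 of wt 12 h. Leaving out each other library of a comparison gave 7 to 12 genes at M0, 8 to 21 at 8 h and 6 to 7 at 12 h. None of the 6 MS4A genes was called without any of these libraries. For *Ms4a6d* the 95% intervals of the log2 difference reached from -0.35 to 0.092 at M0, from -0.19 to 0.25 at 8 h and from -0.16 to 0.29 at 12 h, while for *Ms4a4a*, the gene with the widest spread, they reached from -0.086 to 1.11, from -0.69 to 0.51 and from -0.44 to 0.76. The intervals of *Ms4a6d* thus lay within the minimum fold change of 1.4, and those of *Ms4a4a* reached beyond it.

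At 12 h *Ms4a7* had the lowest p between genotypes among the 6 genes. Both wt libraries, at 144.3 and 138.1 CPM, lay below both *Treml4*-/- libraries, at 199.8 and 195.2 CPM, and the mean in wt was 0.715 times that in *Treml4*-/- cells. The log2 difference was -0.48 ± 0.097 (unadjusted p = 4.3e-04, limma, adjusted p = 0.135) with a 95% interval from -0.69 to -0.27. It was 0.017 at M0 and -0.15 at 8 h, where neither adjusted p passed (1.0 and 0.374, limma). The genotype difference in the response of *Ms4a7* to 12 h of LPS was -0.50 ± 0.14 (unadjusted p = 0.00389, limma, adjusted p = 0.999), and over the 3 time points the genotype difference was -0.21 ± 0.056 (limma, adjusted p = 0.119). These values failed the correction for 12086 genes. The 12 h difference of -0.48 and that of -0.21 over the 3 time points were also under the minimum fold change of 1.4. The comparison over the 3 time points takes libraries of different times as independent. The labels do not say whether such libraries share a culture.

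*Ms4a4a* had 9.14 and 9.50 CPM in wt and 6.34 and 6.14 CPM in *Treml4*-/- cells at M0, with a log2 difference of 0.51 ± 0.27 (unadjusted p = 0.0859, limma, adjusted p = 1.0). The genotypes did not overlap at M0 for 4 of the 6 genes (28.8% of all genes tested), wt being the higher in *Ms4a4a*, *Ms4a4c* and *Ms4a6c* and the lower in *Ms4a6d*, with ratios of mean CPM of 1.49, 1.22, 1.13 and 0.914. They did not overlap for *Ms4a7* alone at 8 h (51.9% of all genes) and for *Ms4a7* and *Ms4a4a* at 12 h (43.1% of all genes). For the genotype difference in the LPS response, 0 of 6 genes were called at 8 h or at 12 h (0.00827% of all genes tested at each), 0 had an unadjusted p under 0.05 at 8 h and *Ms4a7* alone had one at 12 h, where 6.67% and 3.82% of all genes did. The interaction of *Ms4a4a* at 8 h was -0.60 with a 95% interval from -1.45 to 0.24, and that of *Ms4a6c* -0.09 with an interval from -0.51 to 0.33.

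**Figure D3:**
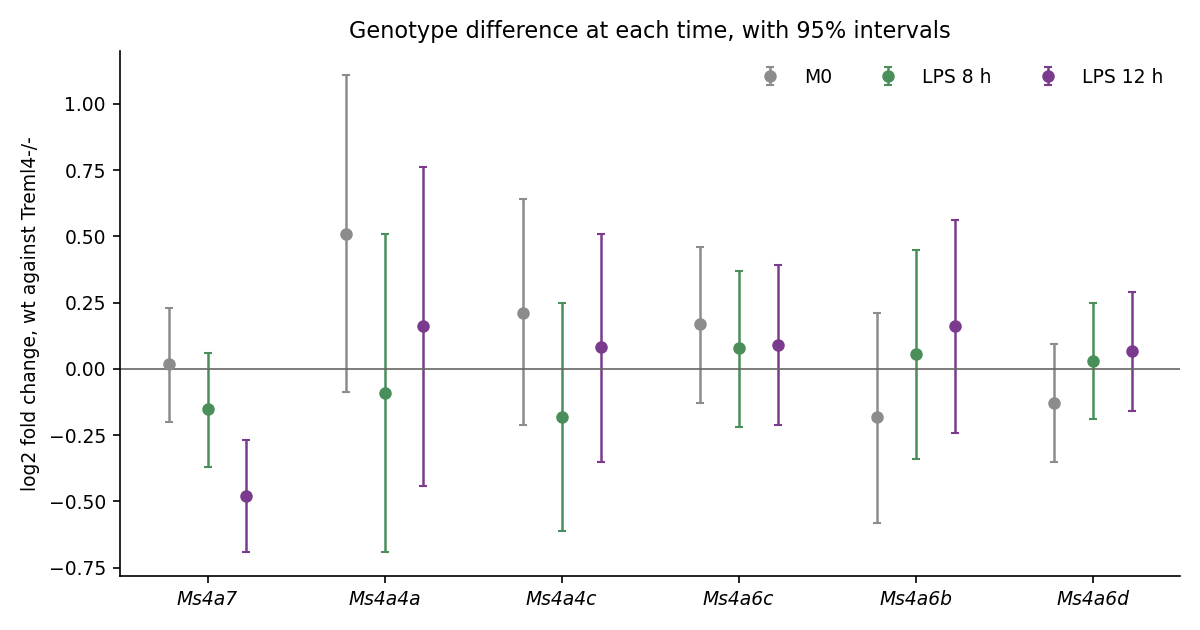
log2 fold change of wt against *Treml4*-/- cells for the 6 MS4A genes at M0, LPS 8 h and LPS 12 h, with 95% intervals from the limma fit over 12 libraries. Each interval includes 0 except that of *Ms4a7* at LPS 12 h, from -0.69 to -0.27, whose adjusted p was 0.135.

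The genes were compared with each other only as CPM per kilobase (kb). At M0 in wt, with the merged exons of all annotated transcripts as length, *Ms4a7* had 72.6 ± 7.21 CPM per kb (SD, n = 2) and *Ms4a6d* 68.2 ± 5.17, and their libraries overlapped. *Ms4a6c* followed with 35.6 ± 2.81, *Ms4a4a* with 11.1 ± 0.304, *Ms4a6b* with 3.65 ± 0.913 and *Ms4a4c* with 1.75 ± 0.0953 CPM per kb, each apart from its neighbours in this order. In *Treml4*-/- cells at M0 the order was the same but for *Ms4a6d* (74.7 ± 1.58) and *Ms4a7* (71.6 ± 5.01), which again overlapped. At 8 h *Ms4a6d* led with 485.1 ± 63.7 CPM per kb in wt and 473.1 ± 27.2 in *Treml4*-/- cells, and *Ms4a6b* (51.3 ± 8.97 and 49.1 ± 7.22), *Ms4a4a* (47.9 ± 18.0 and 51.8 ± 22.9) and *Ms4a7* (42.6 ± 3.52 and 47.3 ± 2.64) overlapped at the end of the order. At 12 h *Ms4a6d* led in both genotypes with 712.6 ± 34.1 CPM per kb in wt and 679.9 ± 22.1 in *Treml4*-/- cells, followed by *Ms4a4c* (243.3 ± 12.2 and 230.2 ± 18.7) and *Ms4a6c* (183.0 ± 26.8 and 171.1 ± 9.80). *Ms4a4a* (151.5 ± 7.63 and 135.5 ± 12.7) came next, then *Ms4a6b* (75.4 ± 12.6 and 67.0 ± 1.67), and *Ms4a7* was last with 31.7 ± 0.984 and 44.4 ± 0.734 CPM per kb. No neighbours in this order overlapped at 12 h.

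The annotated length bears on the place of *Ms4a7*. Its merged exons measure 4453 bases over all transcripts and 1732 bases over the protein-coding transcripts alone, and those of *Ms4a6b* 4485 and 2680 bases. With the coding transcripts, a length chosen after seeing the data, *Ms4a7* had 186.6 ± 18.5 CPM per kb at M0 in wt against 77.1 ± 5.85 for *Ms4a6d*, without overlap. At 8 h *Ms4a7* had rank 3 of the 6, with 109.5 ± 9.05 CPM per kb in wt and 121.7 ± 6.79 in *Treml4*-/- cells. It overlapped there with *Ms4a4c*, and *Ms4a4a* was last. At 12 h *Ms4a7* was last in wt with 81.5 ± 2.53 CPM per kb and overlapped with *Ms4a6b* at the end of the order in *Treml4*-/- cells, with 114.0 ± 1.89 against 112.1 ± 2.80. *Ms4a6d* led after LPS with either length.

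**Figure D4:**
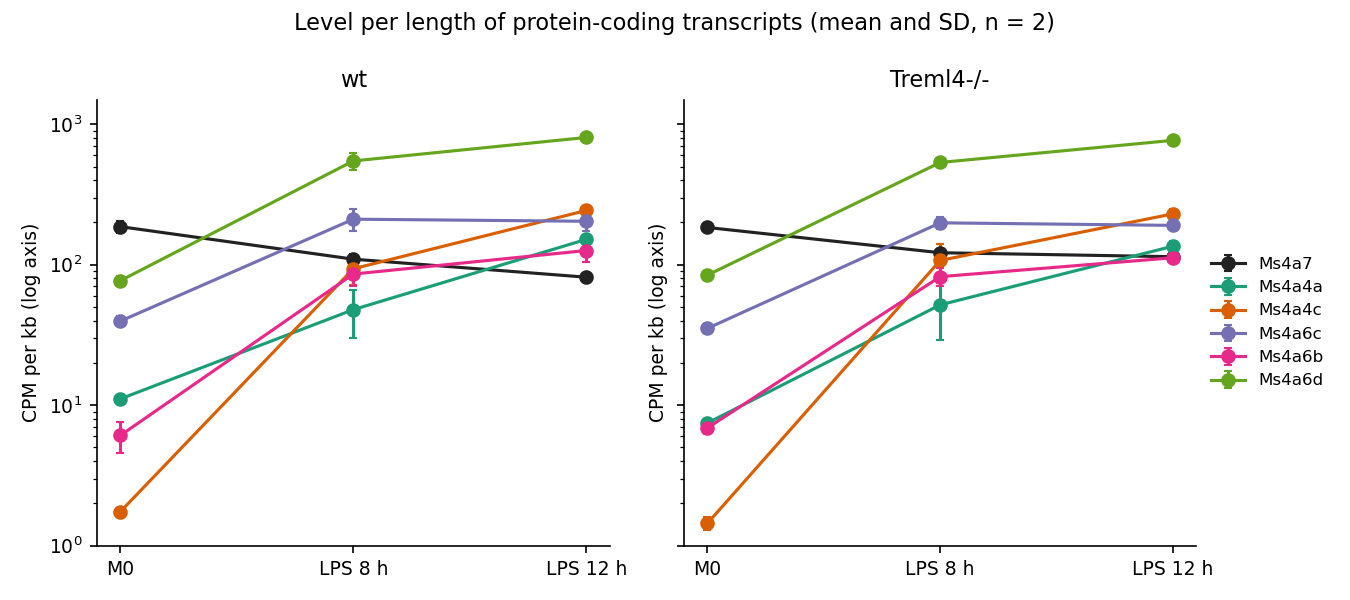
Mean CPM per kb of protein-coding transcript on a log axis, with SD over 2 libraries, for the 6 MS4A genes at M0, LPS 8 h and LPS 12 h in wt and *Treml4*-/- cells. *Ms4a7* is first at M0 with 186.6 CPM per kb in wt, and *Ms4a6d* is first at LPS 12 h with 805.0 CPM per kb in wt, while *Ms4a4c* goes from last to second.

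Of 18 further family genes listed, 17 had a row in the table and 4 passed the filter on low values. All but these 4 and *Ms4a3* stayed at or below 0.615 CPM. *Ms4a1* stayed at or below 0.174 CPM, *Ms4a2* had a single read in 1 library, and *Ms4a5*, *Ms4a10* and *Ms4a13* had none in any library. *Ms4a3*, known from granulocyte and monocyte progenitors, had 35 and 20 reads in wt and 72 and 46 reads in *Treml4*-/- cells at M0, and 1 to 3 reads at 12 h. *Ms4a4d*, which lies between *Ms4a6b* and *Ms4a6d* and was identical at 86.1% to *Ms4a4c*, had at most 7 reads in a library. *Ms4a4b*, known from T cells, had 0.366 and 0.570 CPM at M0 and 1.75 and 1.59 at 12 h in wt, a log2 fold change of 0.86 ± 0.18 (limma, adjusted p = 8.2e-04), and 0.89 ± 0.18 in *Treml4*-/- cells. Its value is uncertain, since it shares runs with *Ms4a4c*, which had a far higher level.

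*Ms4a14*, the neighbour of *Ms4a7*, had 12.3 and 9.68 CPM at M0, 5.91 and 5.85 at 8 h and 15.8 and 14.0 at 12 h in wt. In *Treml4*-/- cells it had 10.9 and 15.3, 8.46 and 24.2, and 23.7 and 21.0 CPM. In wt it was called lower at 8 h than at M0 with a log2 fold change of -0.79 ± 0.34 (limma, adjusted p = 0.0479), which was -0.039 with median of ratios scaling and not called. With that scaling it was called higher than at M0 at 12 h in wt (1.22, adjusted p = 0.00417) and in *Treml4*-/- cells (1.51, adjusted p = 0.00101) and at 8 h in *Treml4*-/- cells (0.84, adjusted p = 0.0321), which it was not on the library size scale. Of all genes, 31% to 32.9% were called higher in these comparisons with that scaling. *Ms4a14* was called higher at 12 h than at 8 h in wt (1.21 ± 0.34, limma, adjusted p = 0.0139) on both scales. Between genotypes its log2 difference at 8 h was -1.16 ± 0.34 (unadjusted p = 0.00587, limma, adjusted p = 0.158), where the 2 *Treml4*-/- libraries differed widely. The related genes *Tmem176a* and *Tmem176b* on another chromosome were called lower at 12 h in both genotypes, as were 60.4% (wt) and 59.6% (*Treml4*-/-) of all genes. *Tmem176b* had -2.49 ± 0.20 in wt and -2.12 ± 0.20 in *Treml4*-/- cells. With median of ratios scaling *Tmem176b* was still called (-1.68 and -1.35) and *Tmem176a* was not (-0.50 and -0.13). By that scaling 33.1% of all genes in wt and 32.5% in *Treml4*-/- cells were called lower at 12 h.

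Among 7 receptors and adaptors known to work with MS4A proteins, 6 passed the filter, and 4 of these were called lower after LPS on a scale on which 58.1% to 60.6% of all genes were called lower. *Trem2*, the lipid receptor of macrophages and microglia, had 942.0 and 1177.4 CPM at M0 and 119.2 and 135.8 at 12 h in wt, with log2 fold changes at 12 h of -3.04 ± 0.12 in wt and -2.90 ± 0.12 in *Treml4*-/- cells. *Clec7a*, which encodes Dectin-1, had 121.7 and 152.7 CPM at M0 and 29.3 and 38.1 at 12 h in wt, with -2.00 ± 0.17 and -1.88 ± 0.17. *Tyrobp*, the adaptor of *Trem2*, had -1.50 ± 0.12 and -1.44 ± 0.12, and *Vsig4*, the partner of *Ms4a6d*, -1.45 ± 0.25 and -1.42 ± 0.25 from 7.64 and 4.07 CPM at M0 in wt. These 4 were called lower at 8 h and 12 h in both genotypes, and at 12 h with median of ratios scaling too, by which 33.1% of all genes in wt and 32.5% in *Treml4*-/- cells were called lower (*Trem2* -2.17 and -2.08, *Clec7a* -1.13 and -1.06, *Tyrobp* -0.62 and -0.61, *Vsig4* -0.80 and -0.78). At 8 h that scaling left 2 of the 4 called in each genotype. The shared signalling chain *Fcer1g* and the kinase *Syk* were not lower after LPS. *Fcer1g* had 0.60 ± 0.11 in wt (called) and 0.29 ± 0.11 in *Treml4*-/- cells, and *Syk* 0.33 ± 0.099 and 0.54 ± 0.099 (called), and both genes were called higher at 12 h in both genotypes with median of ratios scaling. *Tnfrsf18*, the partner of *Ms4a4b* in T cells, stayed at or below 0.748 CPM. None of the 6 tested partners was called between genotypes with limma, where 0.091% to 0.414% of all genes tested were. At single times, *Clec7a* and *Fcer1g* reached an unadjusted p below 0.05 at 8 h (log2 differences of -0.62 and 0.33, limma, adjusted p = 0.155 and 0.176), as did 21% of all genes. *Fcer1g* did so at 12 h (0.25, limma, adjusted p = 0.649), as did 7.55% of all genes.

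The LPS-induced genes listed for comparison had larger median changes than the MS4A genes, whose median was 2.60 at 8 h in wt. All 12 interferon-stimulated genes listed were called higher at 8 h and 12 h in both genotypes. The chemokine gene *Cxcl10* had the highest log2 fold change among them at 8 h in wt (9.15 ± 0.098), and the lowest was 3.38. Their median was 7.10, beside -0.744 over all genes tested. All 10 inflammatory genes listed were called higher as well, from *Cxcl1* (2.07 ± 0.22) to *Nos2* (11.59 ± 0.20), with a median of 7.93. From 8 h to 12 h in wt, 4 of the 12 interferon-stimulated genes were called higher and 1 lower, and 3 of the 10 inflammatory genes were called higher and 4 lower, while 4 of the 6 MS4A genes were called higher (14% of all genes higher and 17.6% lower). Of 15 genes of resident and alternatively activated macrophages, 12 passed the filter. At 8 h in wt 4 of these were called higher and 4 lower, where 16.3% and 60.6% of all genes were. The log2 fold changes of the 12 reached from -1.32 to 2.88. The highest was that of *Mertk* (2.88 ± 0.13), a receptor for the uptake of dead cells. With median of ratios scaling 7 of these 12 were called higher and none lower, where 30.9% of all genes were called in each direction.

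Other genes followed the same course over the 12 libraries, as a description of 6 conditions that share their libraries. By Pearson r of log2(CPM + 1), the genes most like *Ms4a4c* were *Phf11a* (0.9988), *Aoah* (0.9982), which encodes an enzyme that inactivates LPS, and *Il1a* (0.9979), the gene of an inflammatory cytokine. Those most like *Ms4a4a* were *Saa1* (0.9902), *Prelid2* (0.9871) and *Mgarp* (0.9863), of which *Saa1* had only 2.25 CPM at 12 h in wt. *Ms4a6d* was the gene most like *Ms4a6b* of all genes tested (0.998), followed by *Atp1b3* (0.9979) and *A930007I19Rik* (0.9973). *Ms4a6c*, which did not rise after 8 h, was most like *Cd86* (0.9973), the costimulatory molecule, *Fpr2* (0.9972), a formyl peptide receptor, and *Rnf24* (0.9969). *Ms4a6d* was most like *Ly75* (0.9988), *Phf11a* (0.9987) and *Gm12185* (0.9986), and *Ms4a7* was most like *Tnfrsf11a* (0.9717), which encodes the receptor RANK, *Pcdh7* (0.9704) and *Colec12* (0.968). Among the 6 genes, the r of *Ms4a7* with the other 5 was between -0.92 and -0.89, and those among the other 5 were 0.90 or higher. All these values share the step from M0 to LPS. They were computed on the library size scale, on which *Ms4a7* fell with LPS. With median of ratios scaling the log2 fold changes of *Ms4a7* against M0 were between -0.31 and 0.16, and no r was computed.

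Markers of other cell types were low in these cultures. The summed level of the 7 macrophage markers was 20467.6 to 27537.0 CPM at M0 and 9711.7 to 12894.9 CPM after LPS. The markers did not move together. From M0 to 8 h in wt, mean CPM fell for *Lyz2* (14030.5 to 5760.5), *Csf1r* (6439.3 to 1205.8), *Cd68* (1649.5 to 847.5) and *Adgre1* (2041.2 to 1727.9). They rose for *Fcgr1* (62.3 to 1249.8), *Mertk* (34.5 to 257.2) and *Itgam* (992.2 to 1125.7). The summed level of 5 B cell markers was between 0.204 and 6.48 CPM over the 12 libraries, that of 6 mast cell and basophil markers between 0.218 and 1.30 CPM with *Fcer1a* and *Mcpt4* at 0 reads in all, that of 5 T and NK cell markers at most 0.306 CPM and that of 4 fibroblast markers at most 2.39 CPM. The sum of 7 neutrophil and granulocyte progenitor markers was between 24.9 and 82.4 CPM. At M0 it was 24.9 to 69.5 CPM in wt and 74.7 to 82.4 CPM in *Treml4*-/- cells, a difference that was not tested. From M0 to 12 h in wt, mean CPM rose for *S100a8* (14.8 to 35.6). They fell for the other markers of this list, among them *Mpo* (13.5 to 0.536) and *Elane* (4.71 to 0.233). The sum of 5 dendritic cell markers rose with LPS, from 0.649 to 1.16 CPM at M0 to 13.8 to 27.3 CPM after LPS, with *Ccr7* and *Xcr1* at 1 CPM or more in every LPS library and the other 3, *Flt3*, *Zbtb46* and *Siglech*, under 1 CPM in all 12 libraries. Its part in the rise of the MS4A genes was not tested.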

How the data were processed

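RNA of 12 BMDM libraries had been sequenced as paired 126-base reads from stranded, poly(A)-selected libraries. Per the labels and methods, the authors aligned reads with STAR (mm10), counted them with Subread and deposited log2 CPM, that is the reads of each gene scaled to a common library total with a prior of 0.25 reads, on the log2 scale. Whether counting used strand is not given in the sources used here. Deposited log2 values were turned back to CPM, and whole reads came out for 100% of values (tolerance 0.01 reads). 

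Log2(CPM + 1) was tested by linear models (limma 3.58.1, R 4.3.3) holding 1 mean per condition over 12 libraries, a trended prior and Benjamini-Hochberg adjustment over 12086 genes, in 12 comparisons. P-values rest on 2 replicates per condition and the spread shared across conditions and genes. No 2 replicates were alike within sampling noise. Genes named are the 6 members, the listed family and partner genes, the called ends of each further list at 8 h in wt, and the 3 genes most like each member. Some genes that this rule names are not reported here. The members and lists were chosen with earlier results of these data known. The test was checked on simulated data in which equal numbers of genes were raised and lowered in 1 condition. That check does not cover a shift of most genes in 1 direction, as was seen here with LPS. Annotation came from GENCODE M21 and promoters from RefSeq, both GRCm38, the build of mm10. Python 3.11.15 with numpy 2.4.6 and pandas 2.3.3 served for the tables. Alternatives were a pseudocount of 0.1, no filter, median of ratios scaling, voom, only the libraries compared, replicate blocks, no minimum fold change and leaving out each replicate. Other gene lengths and the longer kappa-B form were chosen after seeing the data.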

Additional observations from a re-analysis of the deposited data

How the results depend on the processing

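Of 858 values of the 6 genes under the alternatives, 806 kept their direction and side of the threshold. The 5 rising genes stayed called higher against M0 under every alternative, with leave-one-out values from 1.56 (*Ms4a4a*, wt, 8 h) to 6.93 (*Ms4a4c*, *Treml4*-/-, 12 h). Median of ratios scaling moved the number called lower against M0 from 1 to 0 in each genotype at 8 h and 12 h, *Ms4a7* being 0.078 and 0.16 at 8 h and -0.31 and 0.14 at 12 h in wt and *Treml4*-/- cells. It also turned values that were not called to 0.013 (*Ms4a6c*, 12 h against 8 h, *Treml4*-/-), 0.036 (*Ms4a4a* between genotypes at 8 h), 0.075 (*Ms4a6d* between genotypes over the 3 time points) and 0.0038 (*Ms4a6c*, genotype difference in the 8 h response), and *Ms4a6b* at 12 h against 8 h in *Treml4*-/- cells became called (0.52). Without a minimum fold change 1 gene was called lower at 12 h against 8 h in wt. Without a filter *Ms4a6b* in that comparison kept 0.56 with an adjusted p of 0.076 (limma). Leaving out 1 replicate moved the number called higher at 12 h against 8 h in wt between 2 and 4 and the number lower between 0 and 1. In *Treml4*-/- cells *Ms4a6d* was not called there without replicate 1 of 8 h (0.46), and *Ms4a6b* was called without replicate 2 (0.60).

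Leave-one-out turned some values that were not called. For 12 h against 8 h, *Ms4a6c* ran from -0.23 to 0.14 in wt and from -0.15 to 0.034 in *Treml4*-/- cells. Between genotypes at M0, *Ms4a6b* ran from -0.42 to 0.061 and *Ms4a7* from -0.084 to 0.12. At 8 h, *Ms4a4a* ran from -0.55 to 0.36, *Ms4a4c* from -0.50 to 0.14, *Ms4a6b* from -0.12 to 0.24, *Ms4a6c* from -0.10 to 0.26 and *Ms4a6d* from -0.10 to 0.17. At 12 h, *Ms4a4c* ran from -0.0020 to 0.16, *Ms4a6b* from -0.0099 to 0.33 and *Ms4a6c* from -0.059 to 0.24. Over the 3 time points, *Ms4a4c* ran from -0.069 to 0.15, *Ms4a6b* from -0.069 to 0.093 and *Ms4a6d* from -0.055 to 0.034. In the genotype difference of the response, *Ms4a6b* ran from -0.0036 to 0.48 and *Ms4a6c* from -0.27 to 0.092 at 8 h, and *Ms4a6c* from -0.23 to 0.073 at 12 h. The cause of these changes was not tested. *Ms4a7* between genotypes at 12 h ran from -0.51 to -0.45.

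Correlations of the deviations of same-numbered libraries were mixed, -0.26 at M0, 0.30 at 8 h and 0.06 at 12 h between genotypes, and -0.27 to 0.46 between times within a genotype, so the numbers were not taken as pairs. The replicate block over 12 libraries and that of 4 cultures changed no call of the 6 genes, and with the first *Ms4a7* at 12 h between genotypes stayed at -0.48 (limma, adjusted p = 0.086). Each value rests on 2 libraries per condition and on 124 reads or more per library.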
